A study of Mus musculus with 38 samples.

Results

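The 10 genes described here are a set on the breakdown of the branched-chain amino acids leucine, isoleucine and valine: Bcat1, Bcat2, Bckdha, Bckdhb, Bckdk, Dbt, Ivd, Mccc1, Hibch and Aldh6a1. They were chosen by name, and all 10 were found among the 29411 gene names of the mouse array and among the 21625 genes that were tested. The series holds 38 Agilent arrays of 1 colour, each of RNA from brown fat. Weaned C57BL/6J mice of 3 to 4 weeks of age were given a low-fat control diet with 10% of calories from fat (LFC), a high-fat diet with more sucrose and 60% of calories from fat (HFC), or that same high-fat diet with 5 µg, 20 µg or 75 µg of the botanical formulation Kal-1 (HF5, HF20 and HF75). The LFC and HFC groups had 10 arrays each, labelled Day 6, Day 10, Day 14 and Week 0, 3, 6, 9, 12, 15 and 18. The Kal-1 groups had 6 arrays each, from Week 3 to Week 18. With 1 array for each group and time point, the time points stood in for replicates. Where the time point was a block, the p-values measure how group differences spread over the time points. For the comparisons over weeks 3 to 18 that spread was pooled over all groups. Whether an array holds 1 animal or a pool is not given in the sources used here, and neither is the sex of the animals.

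Branched-chain amino acids are first stripped of their amino group by a transaminase, encoded by Bcat1 in the cytosol and Bcat2 in mitochondria. The resulting keto acids are oxidised by the branched-chain keto acid dehydrogenase complex, in which Bckdha and Bckdhb encode the subunits of the decarboxylating component and Dbt the transacylase core. The kinase Bckdk switches that complex off. Separate mitochondrial enzymes then finish the job, with Ivd and Mccc1 on the leucine branch and Hibch and Aldh6a1 on the valine branch. Active brown fat is known to oxidise these amino acids.

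Each level below is the log2 processed signal of a gene's probe relative to the 75th percentile of its own array, so a level of 0 equals that percentile and a difference of 1 is a doubling. Levels are compared between arrays for 1 gene and never between genes, since probes differ in brightness.

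The sequences of 5 probes are shown because the readings of the transaminase genes depend on which probe is taken. Each line gives the first 30 of the 60 bases of a probe, in lower case, 5′ to 3′, as listed in the scanner files. The deposited table places the Bcat1 probes on chromosome 6 and the Bcat2 probes on chromosome 7.
Bcat1 probe P507537 (used): actaaccacatggaagtgacagatactata
Bcat1 probe P376227: tgggccaatccaaagtacatcagagcctgg
Bcat2 probe P181448 (used): cagcgtcctcgcttcccagagactcaagag
Bcat2 probe P448266: gtgcaccaaatcctgtatgaaggcaagcaa
Bcat2 probe P393781: acagaagaagccagcccctagccaggcact

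The arrays fell into classes that the groups do not explain. The 75th percentile of the processed signal lay between 625 and 1209 on 11 bright arrays and between 35.1 and 430 on 27 dim arrays. The bright arrays were 4 of LFC (Week 0, 3, 9 and 12), 2 of HFC (Day 10 and Week 3), 4 of HF20 (Week 3, 6, 12 and 15), 1 of HF75 (Week 3) and none of HF5, that is 0 of its 6 arrays. Between 36.6% and 78.8% of spots were well above background on an array. There were 32 slides, and scanning took 12 separate days.

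The array labelled HF75 Week 3 went against its tissue label. The uncoupling protein gene Ucp1 was at -3.07 there and at 3.38 or more on each of the other arrays. Cidea, a lipid droplet gene of brown adipocytes, was at -1.78 there and at 5.58 or more elsewhere. Of the 8 brown adipocyte markers listed, Cox7a1, Elovl3, Ppargc1a and Zic1 were also lower there than on any other array, but Adrb3 and Dio2 were not. Adrb3 was at 2.18 there against a median of 1.999 on the other arrays. Dio2 was at -4.197 there, within the range of the other arrays, whose lowest value was -4.202. The mean of the 4 brown adipocyte markers that were saturated on no array (Dio2, Elovl3, Ppargc1a and Zic1) was -5.98 on it and -3.51 to 2.63 on the rest. Of the white fat markers, Hoxc9 was at -0.28 there against a median of -6.23 on the other arrays, being well above background on 7 arrays in all, and leptin (Lep) was at -1.44 against -2.76. Of 5 white fat markers listed, 3 were tested (Lep, Retn and Hoxc9), and their mean was 0.01 on it and -4.88 to -0.73 on the rest. Ranges and differences of HF75 are given with and without this array below.

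Levels of 9 of the 10 genes were high on the bright arrays. On the 10 bright arrays other than the one labelled HF75 Week 3, the mean of the 9 genes without Bcat1 was 3.51 to 4.20. On the 27 dim arrays it was 0.61 to 2.58, and on the array labelled HF75 Week 3 it was 0.26, the lowest of all. For 7 of the 10 genes each of the 10 bright arrays was above all dim arrays, against 6.76% of all genes tested for which the same held. These 7 were Bckdha, Bckdk, Dbt, Ivd, Mccc1, Hibch and Aldh6a1.

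Hibch, which encodes the hydrolase that frees 3-hydroxyisobutyrate from its CoA ester in valine breakdown, showed the split clearly. It was at 5.26 or more on the 10 bright arrays, at 4.74 or less on the dim arrays, and at 1.41 on the array labelled HF75 Week 3. The bright arrays exceeded the dim ones by 2.66 on average for Hibch, by 2.72 for Aldh6a1, by 2.68 for Mccc1 and by 2.44 for Bckdha. For Bcat2 the step was 1.58, with overlap between the classes. For Bcat1 it was 0.09, and the classes covered each other.

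**Figure D1:**
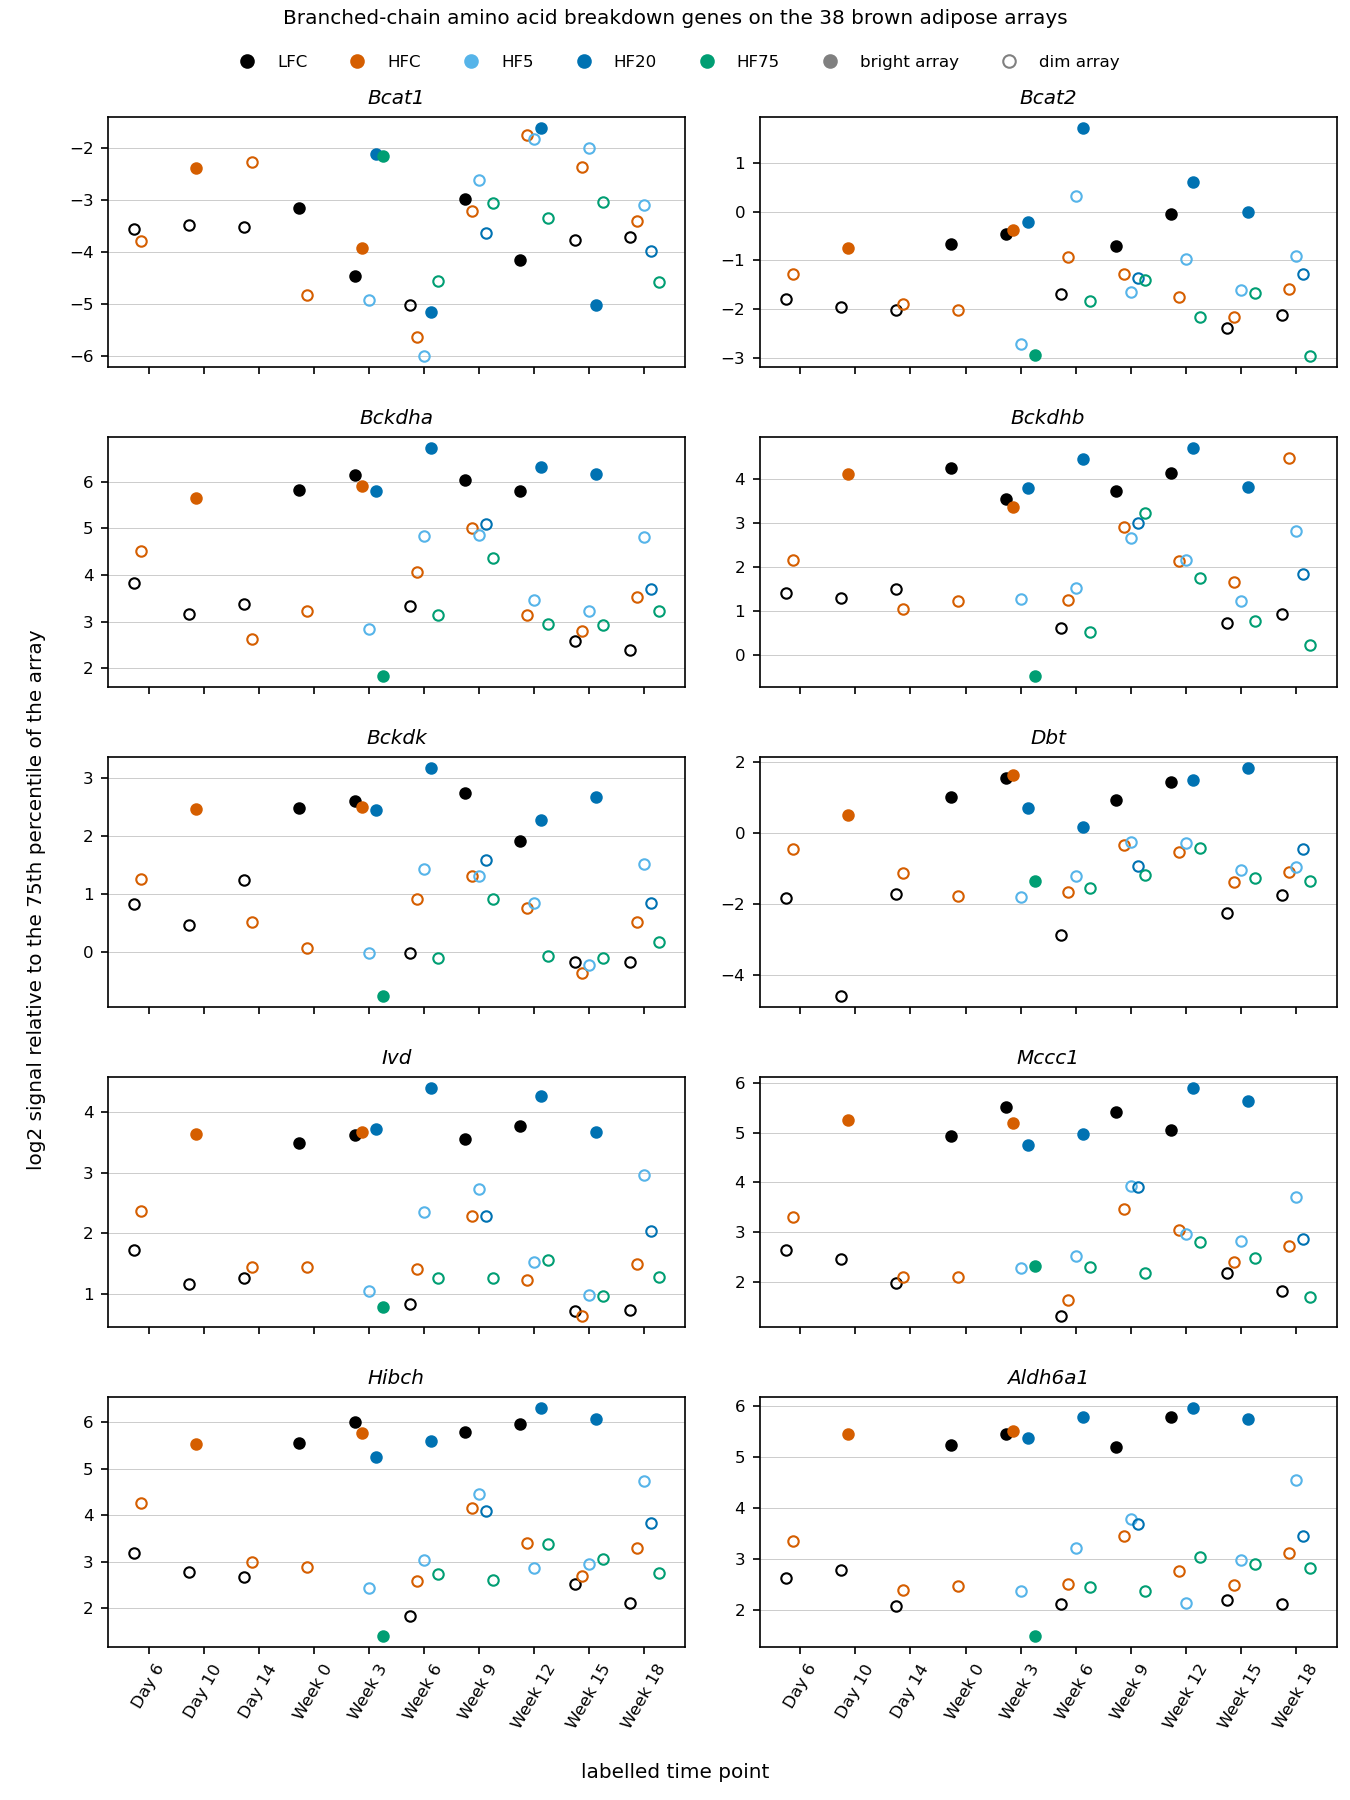
Log2 signal relative to the 75th percentile of the array (vertical axis) of each of the 10 genes at each labelled time point (horizontal axis), 1 point per array, coloured by group, filled for the 11 bright arrays and open for the 27 dim ones. In all panels but that of Bcat1 the filled points lie high, apart from the filled HF75 point of Week 3, and the 6 HF20 arrays hold 4 of the filled points.

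Other cell type markers moved with the same split. Saturated markers have only a bound and were left out of these means. The mean of the general adipocyte markers Pparg and Lipe was 4.33 to 5.11 on the 10 bright arrays and 2.61 to 4.39 on the dim ones. The mean of 4 endothelial markers (Pecam1, Cdh5, Kdr and Tek) ran the other way, at 0.58 to 2.25 on the 10 bright arrays and 3.09 to 4.64 on the dim arrays, with all 4 markers well above background on all 38 arrays. The mean of the erythroid markers Alas2 and Slc4a1 was -2.04 to 0.10 on the 10 bright arrays and -0.34 to 4.90 on the dim arrays, with overlap. On the array labelled HF75 Week 3 these means were 1.75 (adipocyte), 3.56 (endothelial) and -2.40 (erythroid). The mean of the 11 skeletal muscle markers kept Myh4 and Tnni2, which were saturated on some arrays. It spread over -5.43 to 5.03 without following the split. The part of these markers, of brightness and of labelling in the gene levels was not tested. In tissue RNA, fewer cells of a type and less RNA per cell cannot be told apart.

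Within a class, higher brightness did not go with higher levels. The correlation of the mean of the 10 scaled genes with the log2 75th percentile was -0.64 over the 27 dim arrays and -0.21 over the 10 bright arrays. As a description, the mean of the 8 brown adipocyte markers, 4 of them saturated on some arrays, had a correlation of 0.88 with the genes over the dim arrays. The general adipocyte markers, saturated spots included, had 0.84 there and the white fat markers tested had 0.66. The muscle, lymphocyte, macrophage and erythroid lists had 0.24 to 0.42 and the endothelial markers -0.51. Over all 38 arrays the general adipocyte mean had 0.94, the brown adipocyte mean 0.79 and the endothelial mean -0.90. These values share the arrays and the scaling of each array.

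**Figure D2:**
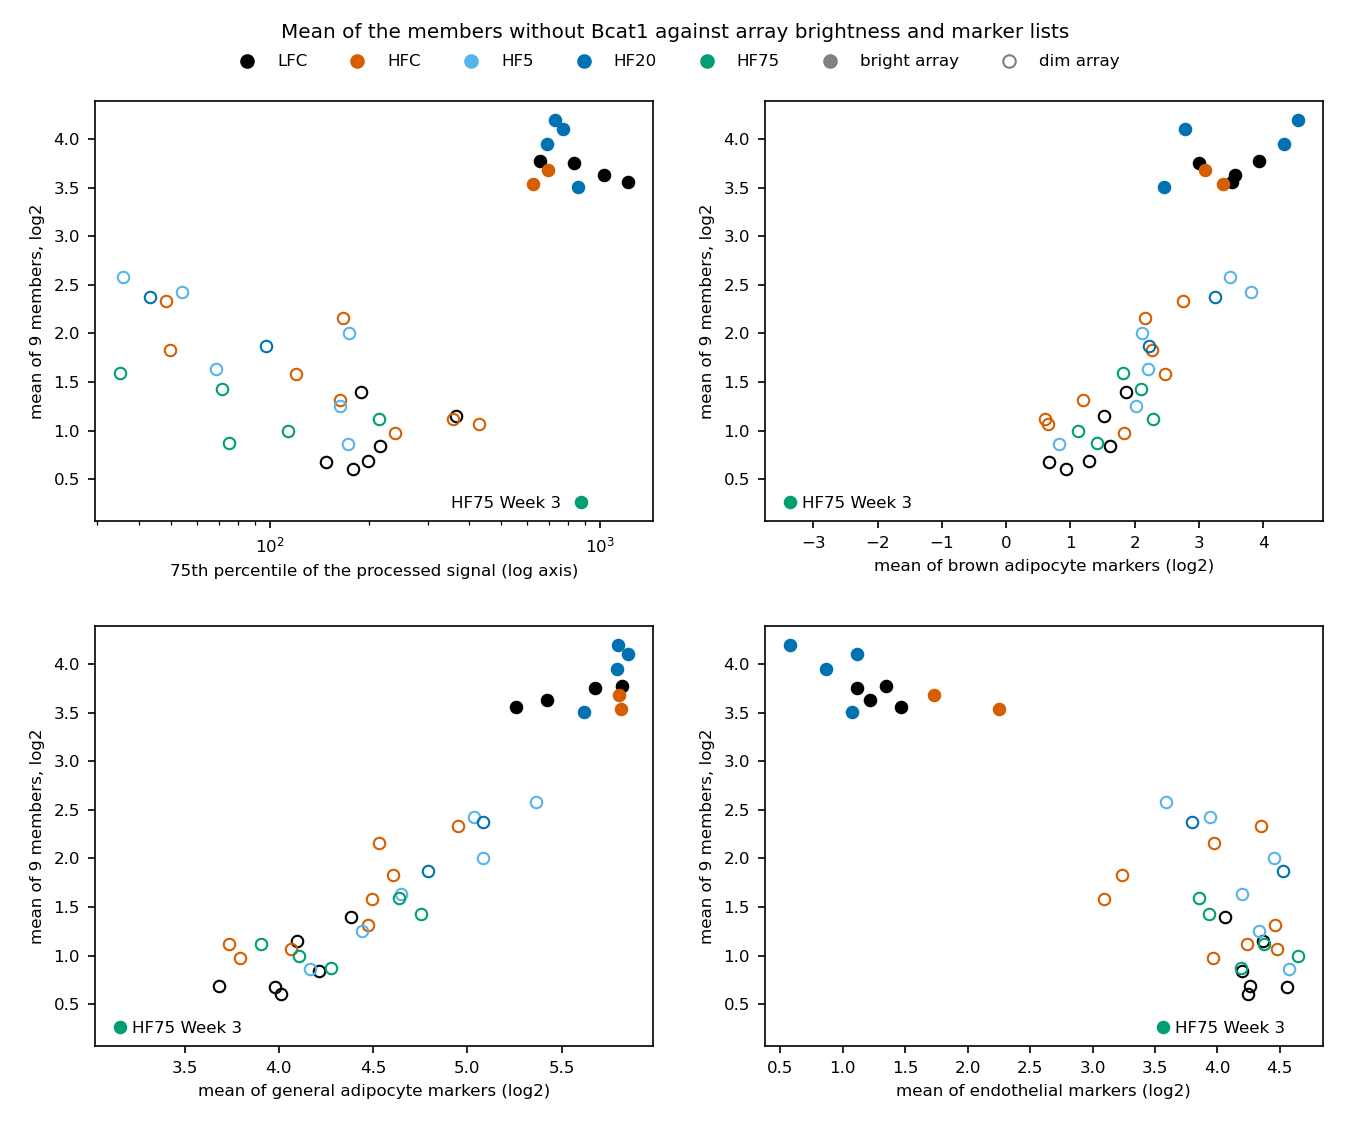
Mean log2 level of the 9 genes without Bcat1 (vertical axes) against the 75th percentile of the processed signal on a log axis, and against the mean log2 levels of the 8 brown adipocyte, 5 general adipocyte and 4 endothelial markers (horizontal axes), saturated spots included, with 1 point per array. The 10 bright arrays form a separate cloud at 3.51 to 4.20, and the array labelled HF75 Week 3 is bright but lowest, at 0.26.

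The 9 genes without Bcat1 also varied together on the dim arrays. Over the 27 dim arrays the 36 pairs of these genes had correlations of 0.30 to 0.91, with a median of 0.59. Each gene was also set against the mean of the other 9. Over the dim arrays Hibch followed that mean most closely with 0.88, Mccc1 had 0.87 and Ivd 0.82, while Bcat2 had 0.49 and Bcat1 had 0.17. Over the 10 bright arrays the pairs ran from -0.46 to 0.94.

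The 5 genes outside the set whose levels were most like the mean of the 10 over all 38 arrays were Auh, Echdc3, Fahd2a, Gm11225 and Prdx3. Their correlations were 0.99 for Auh, 0.98 for Echdc3, Fahd2a, Gm11225 and Prdx3, and 0.92 to 0.95 over the 27 dim arrays alone. Auh, which encodes an enzyme of the leucine branch, is on the list of other pathway genes described below. Prdx3 encodes a mitochondrial peroxiredoxin.

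Promoter windows from RefSeq (GRCm38.p6) are shown for Hibch, the gene nearest to the common pattern, and for Bcat1, which did not share it. Each is the 250 bases before an annotated start, 5′ to 3′ on the strand of the gene, and capitals mark the letters GGGCGG on either strand, known as the GC box.
Hibch, chr1:52844788-52845037, plus strand: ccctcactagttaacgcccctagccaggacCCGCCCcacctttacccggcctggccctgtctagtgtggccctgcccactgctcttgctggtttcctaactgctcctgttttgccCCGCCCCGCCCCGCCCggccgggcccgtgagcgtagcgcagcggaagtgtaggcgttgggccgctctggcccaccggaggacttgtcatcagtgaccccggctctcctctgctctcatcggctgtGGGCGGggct
Bcat1, chr6:145076158-145076407, minus strand: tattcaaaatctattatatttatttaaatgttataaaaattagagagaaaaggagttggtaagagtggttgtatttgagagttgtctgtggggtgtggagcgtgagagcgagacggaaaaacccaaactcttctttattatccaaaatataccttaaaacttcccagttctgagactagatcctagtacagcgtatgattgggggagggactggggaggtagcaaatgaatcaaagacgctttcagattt
The Hibch window held 5 GC boxes, which overlap in part, and the Bcat1 window held 0. Of the 10 genes, 9 matched the promoter table by symbol, with 13 windows. The GC box was in 3 of these 13 windows (Hibch, Mccc1 and Bckdhb), or 23.1%, against 32.7% of all 32851 windows. The letters CCAAT, on either strand, were in 7 of 13 windows (53.8%) against 33.8% of all windows. The nuclear receptor half-site AAGGTCA was in 0 of 13 windows against 4.08% of all. These are counts of letters in short windows and describe no binding.

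The first question was whether the high-fat diet changed these genes. By limma over 20 arrays, blocked on time point, 0 of the 10 genes differed between HFC and LFC after Benjamini-Hochberg adjustment, and neither did any of all genes tested (0%), with 0 of the 10 and 1474 of all genes at an unadjusted p under 0.05. The median difference of the 10 genes was -0.10, beside 0.05 for all genes. Their differences ran from -0.21 (SE 0.48) for Mccc1, the alpha subunit of the leucine branch carboxylase, to 0.43 (SE 0.35) for Bcat1. The intervals were wide. The 95% confidence interval for Bckdha was -1.23 to 0.82, around a difference of -0.20.

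Hibch ran from 1.83 over a median of 2.98 to 5.99 in LFC and from 2.59 over 3.34 to 5.76 in HFC. The groups overlapped throughout, and the difference of -0.08 had a 95% interval of -1.17 to 1.02. Bckdha ran from 2.40 over 3.60 to 6.15 in LFC and from 2.63 over 3.79 to 5.90 in HFC. The highest arrays of both groups were the bright ones.

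The difference between the diets at a time point followed the classes of the arrays compared. At Day 10, where the HFC array was bright and the LFC array dim, the mean of the 9 genes without Bcat1 was 2.70 higher in HFC, although both arrays were on 1 slide. At Week 0, 9 and 12, where only the LFC array was bright, it was lower in HFC by -2.50, -1.30 and -2.17. At the other 6 time points the arrays of both diets were of 1 class, and the difference ran from -0.09 to 1.15. These 6 time points were chosen after the data were seen. Over them Aldh6a1 was higher in HFC at 6 of 6, by 0.46 ± 0.34 (SD), Dbt at 6 of 6, by 0.80 ± 0.48, and Bcat2 at 6 of 6, by 0.37 ± 0.27. Ivd, Mccc1 and Hibch were higher at 5 of 6, Bcat1, Bckdha and Bckdhb at 4 of 6, and Bckdk at 3 of 6. With a term for the brightness class, 10 of 10 genes had a difference above 0, with a median of 0.33 and 0 past the adjusted threshold. Dbt gave the largest of these, 1.05 (95% interval 0.57 to 1.53, adjusted p = 0.342 by limma). On the LFC array of Day 10 the Dbt probe was not well above background, at -4.59.

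Over weeks 3 to 18 alone, 0 of the 10 genes passed for HFC against LFC, where 0.00925% of all genes tested did, or 2 genes. The median of the 10 was -0.26. The ends were -0.50 (SE 0.69) for Aldh6a1, the last dehydrogenase of the valine branch, and 0.64 (SE 0.55) for Bcat1.

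Over the days on diet, 0 of the 10 genes had a slope that passed in the LFC and HFC arrays together, against 1.41% of all genes. The steepest slope was that of Bckdk, the kinase of the dehydrogenase complex, at -0.06 per week (95% interval -0.12 to 0.01, adjusted p = 0.332 by limma). For the difference of the slopes between HFC and LFC, 0 of the 10 genes and 0% of all genes passed. The differences ran from -0.07 per week for Dbt to 0.08 for Bckdhb, and unadjusted p-values under 0.05 were seen for 0 of the 10 and 3283 of all genes.

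The second question was what each dose of Kal-1 did beside the high-fat diet. The median over the arrays was highest in HF20 for 9 of the 10 genes, all but Bcat1, and lowest in HF75 for 8, all but Bcat1 and Dbt. Without the array labelled HF75 Week 3 the HF75 median was the lowest for 7, with Aldh6a1 lost. The LFC and HFC medians were over all 10 arrays of each group, those before Week 3 included, while the Kal-1 groups had arrays from Week 3 onward only. For Dbt, and for Aldh6a1 without that array, the lowest median was that of LFC, so these exceptions compare unlike time points. The order of the medians over the shared weeks alone was not tested. All 3 comparisons share the HFC arrays and their values are given side by side.

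In the dehydrogenase complex, Bckdha ran from 3.70 over a median of 5.98 to 6.71 in HF20, from 2.84 over 4.13 to 4.86 in HF5, and from 1.84 over 3.05 to 4.37 in HF75. Of the 6 HF20 arrays, 5 were above all arrays of HF5 and HF75, among them the dim array of Week 9 at 5.10, and the dim array of Week 18 at 3.70 was not. Bckdhb ran from 1.84 over 3.79 to 4.68 in HF20, from 1.23 over 1.84 to 2.82 in HF5 and from -0.47 over 0.64 to 3.22 in HF75. Dbt ran from -0.92 over 0.45 to 1.83 in HF20 and from -1.56 over -1.30 to -0.41 in HF75, and the dim HF20 arrays of Week 9 and Week 18, at -0.92 and -0.45, lay within the HF75 range. The kinase gene Bckdk ran from 0.86 over 2.36 to 3.17 in HF20 and from -0.74 over -0.08 to 0.92 in HF75, where the lowest HF20 array lay just below the highest HF75 array. Without the array labelled HF75 Week 3, HF75 ran from 2.92 over 3.15 to 4.37 for Bckdha, from 0.24 over 0.76 to 3.22 for Bckdhb, from -1.56 over -1.26 to -0.41 for Dbt and from -0.10 over -0.06 to 0.92 for Bckdk.

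On the leucine branch, Ivd, which encodes isovaleryl-CoA dehydrogenase, ran from 2.04 over 3.69 to 4.39 in HF20 and from 0.80 over 1.26 to 1.55 in HF75, so that these groups were apart. HF5 lay between them, from 0.98 over 1.94 to 2.96. Mccc1 was also apart, at 2.86 to 5.89 in HF20 and 1.70 to 2.81 in HF75. The share of all genes tested that were apart between HF20 and HF75 was not counted. Being apart, here and for Hibch, Aldh6a1 and Bcat2 below, is thus not shown to be particular to these genes. The lowest HF75 values without the array labelled HF75 Week 3 were 0.97 for Ivd and 1.70 for Mccc1.

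On the valine branch, Hibch was at 3.82 to 6.29 in HF20 (median 5.43), at 2.44 to 4.74 in HF5 (median 2.99) and at 1.41 to 3.37 in HF75 (median 2.74). Aldh6a1 was at 3.45 to 5.96 in HF20 and at 1.503 to 3.04 in HF75. Both genes were apart between HF20 and HF75, and the 2 dim HF20 arrays overlapped with HF5. With the array labelled HF75 Week 3 left out, the lowest HF75 values were 2.61 for Hibch and 2.38 for Aldh6a1.

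Of the transaminase genes, Bcat2 ran from -1.37 over -0.11 to 1.71 in HF20, from -2.71 over -1.29 to 0.32 in HF5 and from -2.96 over -1.99 to -1.40 in HF75, so that HF20 and HF75 were apart. The HF75 range was the same without the array labelled HF75 Week 3, around a median of -1.83.

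The cytosolic transaminase gene Bcat1 did not show this order. Its medians were -2.86 in HF5, -3.81 in HF20 and -3.21 in HF75, and the ranges covered each other. It was well above background on 25 of the 38 arrays, 9 of 10 in LFC, 7 of 10 in HFC, 3 of 6 in HF5, 4 of 6 in HF20 and 2 of 6 in HF75. The other 9 genes were above background on 37 or 38 arrays, and Bckdha was saturated on 3.

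Against HFC, HF5 showed 0 of the 10 genes past the adjusted threshold, as in all genes (0%), and 0 of the 10 and 1193 of all genes at an unadjusted p under 0.05. The differences ran from -0.68 (SE 0.65) for Bckdhb to 0.14 (SE 0.58) for Ivd, with a median of -0.10. At Week 3, where only the HFC array was bright, the mean of the 9 genes without Bcat1 was lower in HF5, by -2.82. At the other 5 time points, where both arrays were dim, it was higher in HF5 at 5 of 5, by 0.37 ± 0.33 (SD).

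HF20 against HFC gave the largest median difference of the 3 doses, but 0 of the 10 genes and 0% of all genes passed the adjusted threshold. At an unadjusted p under 0.05, 7 of the 10 were higher in HF20, against 13.4% of all genes in that direction. Their median difference was 1.39, beside -0.18 for all genes. Aldh6a1 was 1.69 higher (SE 0.69, 95% interval 0.26 to 3.11, adjusted p = 0.125 by limma) and Ivd 1.60 higher (SE 0.57, interval 0.41 to 2.79, adjusted p = 0.121 by limma). Bckdha gave 1.56 (SE 0.65), Hibch 1.54 (SE 0.71) and Dbt 1.04 (SE 0.60), and Bcat1 gave -0.21 (SE 0.55).

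These HF20 differences were seen at the time points where only the HF20 array was bright. For the mean of the 9 genes without Bcat1 the difference was 2.79 at Week 6, 2.62 at Week 12 and 2.98 at Week 15. It was -0.17 at Week 3, where both arrays were bright, and 0.04 at Week 9 and 0.04 at Week 18, where both were dim. With a term for the brightness class the median of the 10 genes was 0.30 and 0 of 10 had an unadjusted p under 0.05. Hibch then gave 0.23 (95% interval -0.95 to 1.41) and Bckdhb gave -0.04 (interval -1.27 to 1.19). Without Week 3, 4 of the 10 genes passed the adjusted threshold, against 15.5% of all genes tested in that fit.

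HF75 against HFC gave 0 of 10 genes past the adjusted threshold, against 0% of all genes, and all 10 were lower in HF75, with a median of -0.80. At an unadjusted p under 0.05 only Bckdhb was lower, 1 of 10, against 4.31% of all genes in that direction. Bckdhb, the beta subunit of the decarboxylating component, differed by -1.62 (SE 0.65, 95% interval -2.96 to -0.29, adjusted p = 0.531 by limma). Its highest HFC value, 4.46 at Week 18, came from a dim array, on which Bckdha was at 3.52 and Hibch at 3.29. Bckdha differed by -0.996 (SE 0.65) and Hibch by -0.996 (SE 0.71).

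The HF75 and HFC arrays were of 1 brightness class at all 6 time points, so a term for the class left the differences as they were. It narrowed the intervals of all genes but Bcat1. With it Bckdhb, Bckdk, Bcat2, Bckdha and Mccc1 had an unadjusted p under 0.05 by limma, the array labelled HF75 Week 3 included. The share of all genes at that level in this fit is not given here. The lowest adjusted p among the 10 was 0.197 by limma, for Bckdhb. The mean of the 9 genes without Bcat1 differed by -3.42 at Week 3 and by -0.95 to 0.14 at the other time points. Without that array the median of the 10 genes was -0.60, Bckdhb gave -1.25 (interval -2.62 to 0.11), Bckdha -0.62 and Hibch -0.59, and 0 of 10 had an unadjusted p under 0.05.

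**Figure D3:**
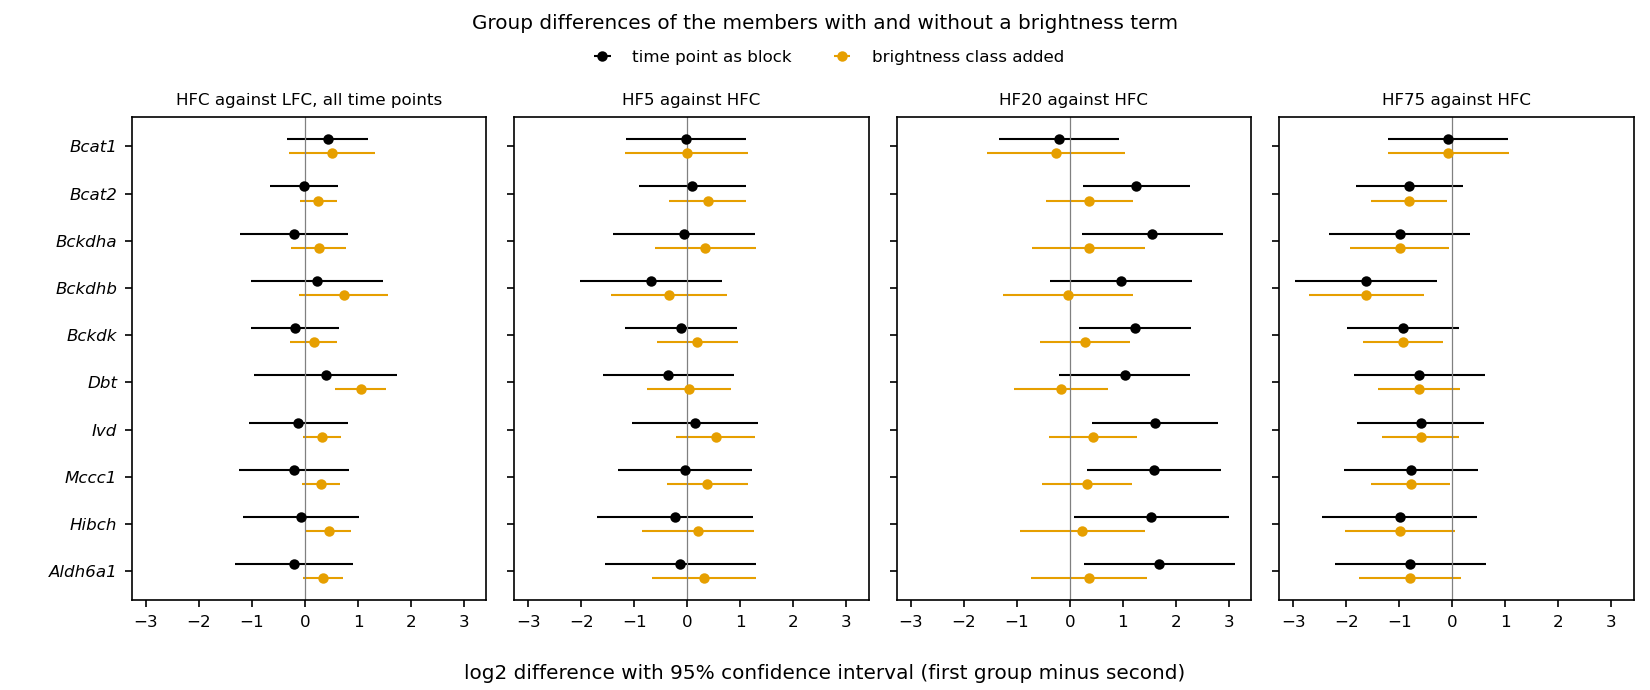
Log2 difference (horizontal axes) of each of the 10 genes in 4 comparisons, with 95% confidence intervals from limma, blocked on time point (black) and with the brightness class added (orange). The HF20 differences of 9 genes lie between 0.96 and 1.69 in black and between -0.16 and 0.43 in orange. The HF75 differences are the same in both, with narrower intervals in orange for all genes but Bcat1.

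The doses were then tested against each other in 1 moderated F test, which asks whether HF5, HF20 and HF75 differ at all. Of the 10 genes, 8 passed at adjusted p = 0.0348 to 0.0456 by limma, against 13.7% of all genes tested. They were Bcat2, Bckdha, Bckdhb, Bckdk, Ivd, Mccc1, Hibch and Aldh6a1. Dbt had an adjusted p of 0.085 by limma and Bcat1 one of 0.963.

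The widest gap was between HF20 and HF75. Hibch was lower in HF75 than in HF20 at 6 of 6 time points, by -2.53 ± 1.04 (SD). Mccc1 was lower at 6 of 6, by -2.37 ± 0.78, and Bckdha at 6 of 6, by -2.55 ± 1.53. HF75 against HF5 gave -0.76 ± 1.04 for Hibch and -0.93 ± 0.60 for Bckdha, the latter lower at 6 of 6 time points. Without the array labelled HF75 Week 3, over 5 time points, HF75 was lower than HF20 by -2.27 ± 0.92 for Hibch, by -2.36 ± 0.87 for Mccc1 and by -2.28 ± 1.53 for Bckdha, each at 5 of 5. HF75 against HF5 then gave -0.70 ± 1.15 for Hibch and -0.92 ± 0.66 for Bckdha. HF20 against HF5 gave 1.77 ± 1.90 for Hibch and 1.62 ± 1.70 for Bckdha. At Week 18, HF20 and HF75 were both dim and on 1 slide, and all 10 genes were lower in HF75, with a median of -0.82. At Week 9, where both were also dim, 8 of the 10 were lower in HF75, with a median of -0.70, and Bcat1 and Bckdhb were higher.

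All 8 calls were lost, to 0 of 10, without the array labelled HF75 Week 3, with a term for the brightness class, or with Week 3, 6, 12 or 15 left out. Without that 1 array, 0 of the 21625 genes passed by limma, with 9 of the 10 and 7456 of all genes at an unadjusted p under 0.05. With the brightness class, the unadjusted p-values of the 8 genes ran from 0.0030 for Bcat2 to 0.0394 for Hibch by limma. Their adjusted p-values ran from 0.26 for Bcat2 to 0.41 for Hibch by limma. The share of all genes under 0.05 without adjustment in that fit is not given here.

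A list of 21 other genes of the pathway was tested in the same way. None passed in the comparisons of HFC with LFC or of a dose with HFC, that is 0 of 21 in each, and in HF20 against HFC 19 of 21 were higher, with a median of 1.25. In the F test among the doses 13 of 21 passed, against 13.7% of all genes tested. Of the shared and complex enzymes these were Dld, the dehydrogenase shared with other keto acid complexes, Echs1 and Hsd17b10. Of the leucine branch they were Mccc2 and Auh, of the isoleucine branch Acadsb and Acat1, and of the valine branch Hibadh. Pcca and Pccb, the subunits of propionyl-CoA carboxylase, and Mut and Mmab of the methylmalonyl-CoA step also passed.

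Pcca had the lowest adjusted p, 0.0338 by limma, and its difference from HFC was 2.12 in HF20, -0.55 in HF5 and -1.67 in HF75. Slc7a5, the plasma membrane carrier of large neutral amino acids, passed in the opposite direction. This gene was dim, well above background on 22 of the 38 arrays, with a median of -4.02 outside the array labelled HF75 Week 3. Its difference from HFC was -1.57 in HF20, -0.80 in HF5 and 0.86 in HF75, with an adjusted p of 0.0364 by limma. The counts of all genes without the array labelled HF75 Week 3 are given above. In that fit 0 of the 21 genes passed by limma, with 16 of the 21 at an unadjusted p under 0.05. The HF75 differences were then -1.20 for Pcca (adjusted p = 0.0635 by limma in the F test) and 0.57 for Slc7a5 (adjusted p = 0.0756). The next genes did not pass and were picked for their roles after their values were seen. The partner of Slc7a5, Slc3a2, gave -0.25 in HF20 and 0.40 in HF75, with an adjusted p of 0.178 by limma in the F test. Slc25a44, the mitochondrial carrier of these amino acids, gave 1.53 in HF20 and did not pass, with an adjusted p of 0.055 by limma. The phosphatase Ppm1k, which switches the dehydrogenase complex on, gave 0.88 in HF20 and -0.29 in HF75, with an adjusted p of 0.0672 by limma.

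**Figure D4:**
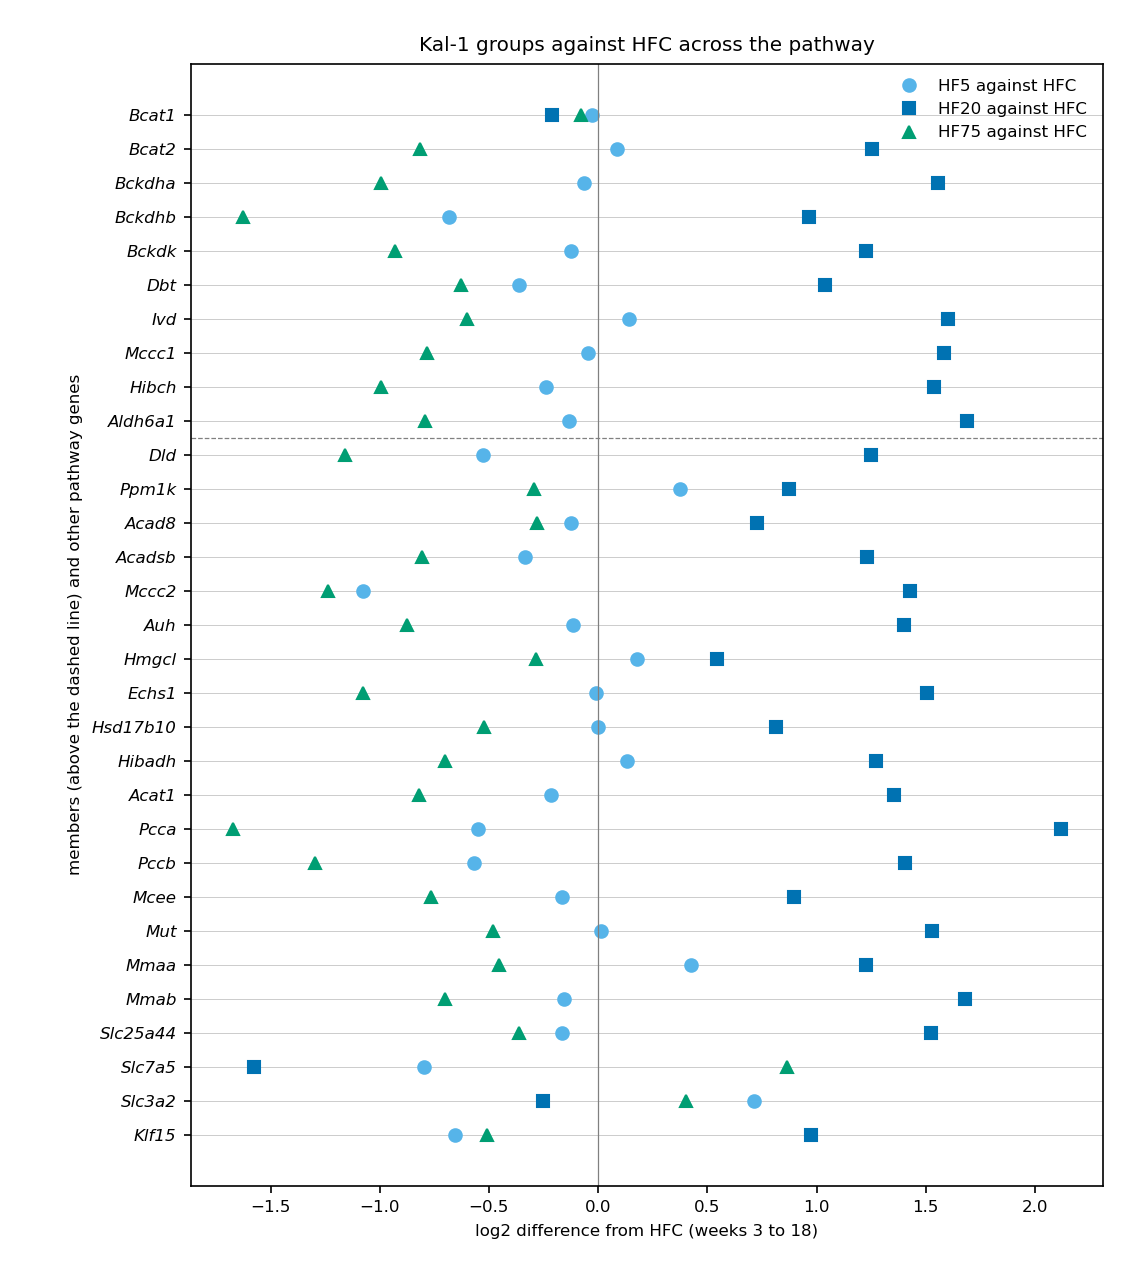
Log2 difference from HFC over weeks 3 to 18 (horizontal axis) for the 10 genes (above the dashed line) and the 21 other pathway genes, for HF5 (circles), HF20 (squares) and HF75 (triangles). Squares lie to the right and triangles to the left for nearly all genes. Slc7a5, well above background on 22 of the 38 arrays, is reversed, with HF20 at -1.57 and HF75 at 0.86.

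Of the 10 genes, 4 had 1 probe and 6 had several. The second probes of Bckdha, Bckdhb, Ivd and Mccc1 had correlations of 0.93, 0.90, 0.90 and 0.89 with the probe used over the 38 arrays, and of 0.63 to 0.78 over the dim arrays. Bcat2 had 3 probes and they disagreed. Probe P448266 had a correlation of 0.90 with the probe used, P181448, and was 1.49 higher on the 10 bright arrays than on the dim ones. Probe P393781 had a correlation of -0.35 and a step of -1.25, the opposite direction. In HF20 against HFC the used probe gave 1.25 ± 1.26 (SD, n = 6 time points), P448266 gave 0.91 ± 1.18 and P393781 gave -0.62 ± 1.64, so 2 of the 3 Bcat2 probes gave a difference above 0.

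Both Bcat1 probes were dim. The second, P376227, was above background on 6 arrays only, had a correlation of 0.23 with the used one, and stepped by -2.05 from the dim to the 10 bright arrays, where the used probe stepped by 0.09.

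**Figure D5:**
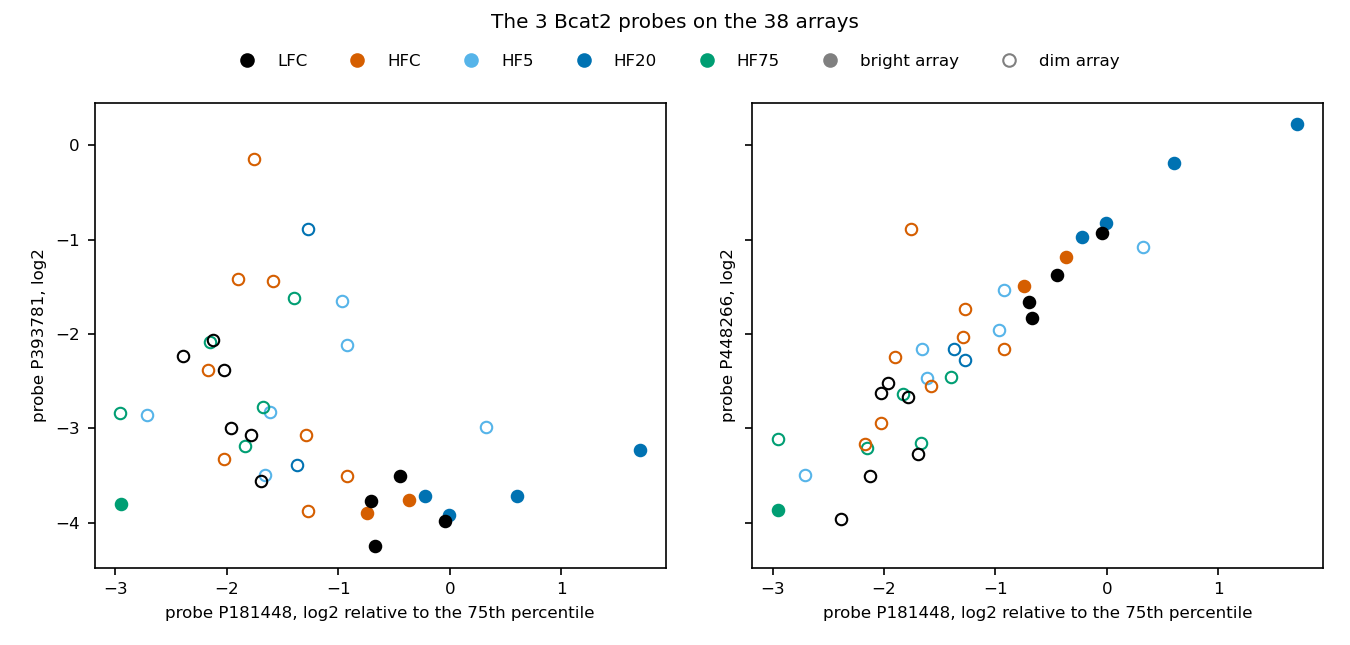
Log2 levels of the Bcat2 probes P393781 and P448266 (vertical axes) against the probe used, P181448 (horizontal axes), 1 point per array, with filled points for bright arrays. P448266 rises with the used probe (0.90) and P393781 does not (-0.35).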

How the data were processed

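Brown adipose RNA of 38 samples was read on 1-colour Agilent arrays. Per the file headers, the authors' intensity values came from Feature Extraction 10.5.1.1, while the submitters' processing notes name version 9.1. The scanner's processed signal, already background-subtracted, was used. A deposited table of log2 values, set by the authors against the LFC array of each time point, served as an alternative. Its 24 columns outside Week 15 had correlations of 0.994 to 0.9996 with the scanner values, and its 4 Week 15 columns had correlations near 0 by probe name and of 0.990 to 0.999 when read in spot order. That table also gave the chromosomes.

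Processed signals were log2 transformed and reduced by the 75th percentile of each array. Spots of a probe were averaged, outlier-flagged spots left out, and each gene was read from its brightest probe by mean. The 21625 genes whose probe was well above background on 6 or more arrays entered limma 3.58.1 (R 4.3.3), and p-values were adjusted over all of them by Benjamini-Hochberg, with calls under 0.05. The time point was a block, as labelled, except in the trend over days on diet. That trend was fitted with the diet group and a slope on days, without the block. Deviations of arrays of the same time point from their group means had median correlations of 0.40 (LFC and HFC) and 0.18 (weeks 3 to 18), with single pairs from -0.54 to 0.74. Day 14 and Week 0 both count as 14 days on diet. Bright arrays had a 75th percentile over 600. The fit was tested on simulated data. Array number limits the precision, since arrays give no read depth.

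By rule, the text names all 10 genes, those of the 21 other pathway genes that passed in a comparison, and the 5 most alike genes, while Slc3a2, Slc25a44 and Ppm1k were named outside that rule, after their values were seen. The members and lists were chosen with earlier results of these data known. Alternatives included quantile normalization, normexp background correction, other filters and probe rules, and slide, scan day, brightness and marker terms. Others left out time points, or used an unpaired t-test of HFC against LFC with all time points pooled. Promoter windows came from RefSeq tables.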

Additional observations from a re-analysis of the deposited data

Results flagged for a closer look

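One array stood far from the rest of its group for 1 of the 10 genes. Dbt was at -0.41 on the HF75 array of Week 12, against -1.56 to -1.19 on the other 5 arrays of that group. Chance gives such a gap in about 1 of 20 combinations of gene and group, and it was found in 1 of the 50 examined.

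Levels differed among the groups of the 3 Kal-1 doses for 8 genes by limma's moderated F test, against 13.7% of all genes tested. The adjusted p-values by limma were 0.0348 for Bcat2, 0.0376 for Bckdha, 0.0367 for Bckdhb and 0.0348 for Bckdk. They were 0.0395 for Ivd, 0.0381 for Mccc1, 0.0456 for Hibch and 0.0437 for Aldh6a1. Without the array labelled HF75 Week 3 the same genes had adjusted p-values of 0.0673 to 0.0823 by limma. The HF20 group held 4 bright arrays, HF5 0 and HF75 1. With the brightness class or brightness as a covariate 0 of the 8 passed the adjusted threshold.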

How the results depend on the processing

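The count of 8 genes past the threshold among the doses was 8 with quantile normalization, a floor at background, the mean over probes, scan day as a random block, scan day as a fixed block (added after seeing the data) and the deposited table with Week 15 in spot order, 7 of 7 with genes well above background on every array and 9 with slide as a random block, against 10.6% to 34.1% of all genes. It was 0 with normexp, no filter on dim probes, the brightness class, the brightness covariate, the skeletal muscle covariate and the deposited table without Week 15, and, among alternatives added after seeing the data, 0 with the brown adipocyte or endothelial covariate and without the array labelled HF75 Week 3, with or without the brightness class. For most of these settings with 0 the share of all genes is not given here. Without 1 time point the count ran from 0 to 9, the 9 being without Week 9, against 24.8% of all genes. With no replicate block (the time point left out of the model) it was 6, against 6.07% of all genes. Mccc1 and Hibch were lost there, and the counts of the other comparisons stayed at 0. In HF20 against HFC the genes past the threshold ran from 0 to 4 without 1 time point. The 4 were without Week 3, against 15.5% of all genes. With the endothelial covariate 2 genes passed for the trend over days, against 12.7% of all genes. With the brown adipocyte covariate 3 passed for the difference of the trend, against 9.6% of all genes, and its median became -0.10, and the median trend with brightness as a covariate was 0.022. The causes were not tested. By an unpaired t-test with all time points pooled, 0 of the 10 genes differed between HFC and LFC. Of all genes, 882 did before and 0 after Benjamini-Hochberg adjustment. In HF20 against HFC the median of all genes was -0.18, 0.05 with quantile normalization and -0.39 with normexp, and that of the 10 genes 1.39, 1.36 and 1.31.

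Signs turned as follows. Bcat1 in HF20 against HFC became 0.47 with quantile normalization, 0.011 with the muscle covariate, 0.25 with the table without Week 15 and 0.017 with the brown covariate (-0.61 to 0.28 without 1 time point). In HF75 against HFC it became 0.23 with quantile normalization, 0.22 with normexp, 0.13 with the floor, 0.0036 with the muscle covariate and 0.036 with the table without Week 15 (-0.45 to 0.23 without 1 time point). In HF20, Bckdhb became -0.039 with the brightness class, -0.30 with the endothelial covariate and -0.26 with the class and without the array labelled HF75 Week 3. Dbt became -0.16, -0.11 and -0.33 in the same order, and Hibch -0.026 in the last. With the brown covariate HF75 against HFC gave 0.0081 for Bckdha, 0.19 for Dbt, 0.22 for Ivd, 0.073 for Mccc1, 0.14 for Hibch and 0.27 for Aldh6a1.

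In HFC against LFC, Mccc1 became 0.00084 with quantile normalization, 0.30 with the brightness class, 0.42 with the brightness covariate and 0.25 with the endothelial covariate (-0.54 to 0.083 without 1 time point). Bckdha became 0.26, 0.31 and 0.20 with the last 3 of these (-0.50 to 0.070). Hibch became 0.10, 0.45, 0.56 and 0.39 with those 4, 0.043 with Day 14 and Week 0 joined, 0.079 with the brown covariate and 0.094 with scan day as a fixed block (-0.39 to 0.21). Over weeks 3 to 18 Aldh6a1 became 0.38, 0.41 and 0.15 with the brightness class, the brightness covariate and the endothelial covariate, and 0.54 with the class and without the array labelled HF75 Week 3. Ivd in HF5 became -0.049 with the mean over probes (-0.12 to 0.69 without 1 time point). For the difference of the trend Bckdhb became -0.021 with the brown covariate (-0.035 to 0.13) and Dbt became 0.00014 with the brightness class and 0.032 with the brightness covariate (-0.13 to 0.011).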
